A study of Homo sapiens with 23 samples.

Results

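LNCaP is an androgen-sensitive human prostate cancer cell line, and enzalutamide is an antiandrogen used against advanced prostate cancer. The comparison described here set LNCaP cells given enzalutamide at 10 µM for 7 days (3 libraries, called a, b and c) against LNCaP cells given vehicle for 7 days (3 libraries, 1 to 3). These 6 samples were chosen by their treatment labels and are 6 of the 23 in the series, which follows the transcription factor ONECUT2 (OC2) in prostate cancer cells. The experiment had one more arm, called the combination, in which cells received both enzalutamide (10 µM) and an inhibitor of OC2 (10 µM) over 7 days (3 libraries). Its values stand beside those of enzalutamide, and both use the same vehicle libraries. All 3 arms were grown in RPMI medium with 10% serum. The labels do not say whether the libraries of an arm came from separate cultures, so p-values measure the spread between these libraries, which may be technical. Of 54657 gene symbols, 17554 had counts above 0 in all 9 libraries of the experiment and 16231 of them passed the filter on low counts and were tested.

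Androgens act through a nuclear hormone receptor that binds DNA and raises the transcription of target genes, many of which encode secreted proteases, lipid enzymes and transporters of the prostate epithelium. The same signal holds other genes down, among them enzymes that inactivate androgens. An antiandrogen is therefore known to lower the first kind of gene and raise the second, and to slow the cell cycle of androgen-sensitive cells.

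The enzalutamide columns differed from the others in kind. They held whole counts on every line, while 58.8% to 59.4% of the nonzero lines of the vehicle columns were whole, so they came from another counting step. The totals were 27929438, 28227703 and 28241076 counts in enzalutamide libraries a, b and c, against 22615580, 22788464 and 22767747 counts in vehicle libraries 1, 2 and 3. Treatment, counting step and any difference in library batch cannot be told apart in this comparison. The combination and vehicle columns share a counting step. A difference between enzalutamide and the combination therefore also crosses the counting step, which cannot be told apart from the OC2 inhibitor there. The root mean square log2 difference between single libraries was 0.82 to 0.91 for combination and vehicle. It was 1.23 to 1.34 for combination and enzalutamide, and 1.39 to 1.46 for enzalutamide and vehicle. In addition, 443 symbols were at 0 in all 3 enzalutamide libraries and above 0 in the other 6, and 1089 symbols showed the reverse. None of these symbols was tested. Library a stood apart from b and c on many genes, and results that rest on it are given without it. Because these are bulk libraries, fewer cells of a kind and less RNA per cell cannot be told apart.

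**Figure D1:**
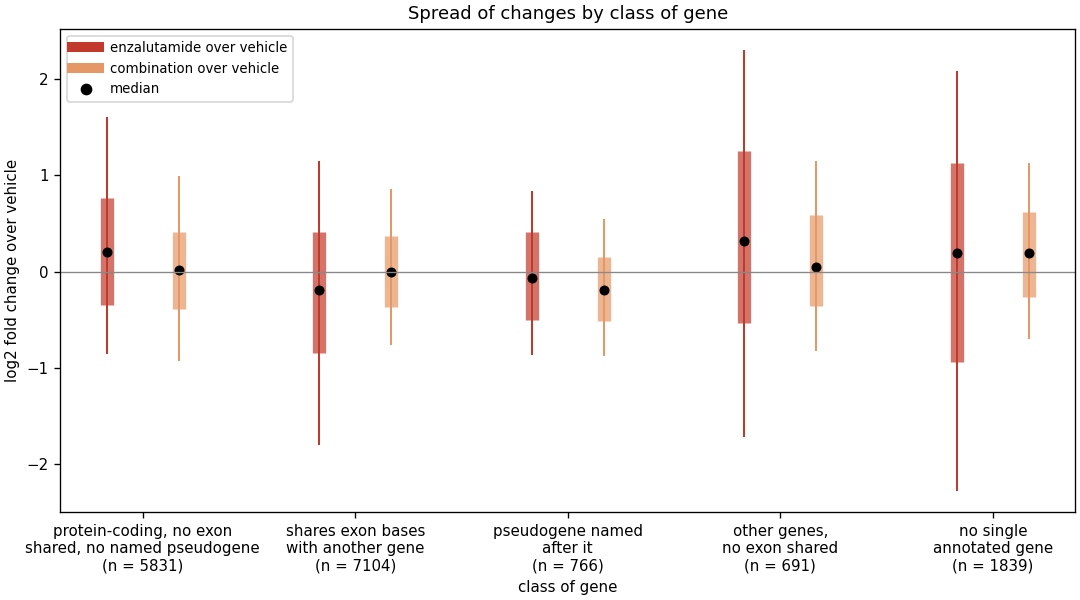
Spread of log2 fold changes over vehicle by class of gene, for enzalutamide (left of each pair) and the combination (right of each pair). Boxes span the middle 50% of genes, thin lines the middle 80% and points the medians. Genes that share exon bases have an enzalutamide median of -0.19, against 0.21 for protein-coding genes that share none, while the 2 combination medians lie at -0.0032 and 0.01.

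Of the 16231 genes tested, 11173 (68.8%) changed with enzalutamide at an adjusted p under 0.05 (edgeR's quasi-likelihood test with Benjamini-Hochberg adjustment over all genes). Of these, 5585 were higher (34.4%) and 5588 were lower (34.4%). The change was at least 2-fold for 5227 genes (32.2%), 16.6% of all genes higher and 15.6% lower. All 3 enzalutamide libraries lay outside the vehicle range for 11825 genes (72.9%), above it for 36.3% and below it for 36.6%. The median log2 fold change was 0.02 over all genes. It was 0.21 over the 5831 protein-coding genes that share no exon bases with another annotated gene and have no pseudogene named after them, of which 4070 changed (69.8%), 2531 rose (43.4%) and 1539 fell (26.4%). Among the 7104 genes that share exon bases, 1933 rose and 3098 fell, with a median of -0.19. Many of the genes named below that share exons are marked as such, since the counting step may split their reads differently in the 2 sets of columns.

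Androgen-induced genes fell as a group. Of 40 genes listed, 36 were tested, and 29 fell, 4 rose and 3 did not pass the test, against 34.4% of all genes in each direction. Their median log2 fold change was -1.93, against 0.02 over all genes. Among the 21 members that share no exon, 15 fell and 3 rose. The list was chosen with results of these data known, so its direction is a description. Their summed level was 5614, 5743 and 5605 CPM (counts scaled to a common library size, with TMM) in enzalutamide libraries a, b and c, against 10387, 11365 and 10588 CPM in vehicle libraries 1, 2 and 3.

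KLK3, which encodes prostate-specific antigen, is encoded on chromosome 19 (plus strand, bases 50854915 to 50860764 of hg38 in GENCODE 29) and shares no exon. It stood at 138, 407 and 351 CPM in enzalutamide libraries, against 1538, 1842 and 1630 CPM in vehicle libraries. All 3 enzalutamide values lay far below the vehicle values, with library a lowest. The fall was 5.59-fold (log2 fold change -2.48, SE 0.32, adjusted p = 5.84e-05), and -2.14 on the log2 scale without library a. In the combination KLK3 was at 68.4 CPM (log2 fold change over vehicle -4.61). Its neighbour and close paralog KLK2 stood at 6.45, 17.4 and 15.9 CPM in enzalutamide libraries, against 177, 208 and 185 CPM in vehicle libraries (log2 fold change -3.84, SE 0.30, adjusted p = 1.53e-06). Reads of the 2 kallikreins may be split differently by the 2 counting steps. KLK4, another prostate kallikrein, fell as well (log2 fold change -1.95, adjusted p = 5.1e-06).

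The steepest fall of the list was HPGD, the enzyme that begins the breakdown of prostaglandins. HPGD had 0.338, 0.0315 and 0.126 CPM in enzalutamide libraries, against 19.2, 21.4 and 16.7 CPM in vehicle libraries (log2 fold change -6.80, SE 0.37, adjusted p = 9.93e-08). It was near the floor of counting in all 3 enzalutamide libraries, so the size of its fall is loosely fixed, and it was -7.83 without library a. CHRNA2, a nicotinic receptor subunit, stood at 2.18, 1.51 and 1.01 CPM with enzalutamide and 45.4, 45.6 and 49.6 CPM with vehicle. MAF, a bZIP transcription factor, had 8.88, 8.03 and 7.78 CPM with enzalutamide and 108, 134 and 104 CPM with vehicle. Enzalutamide and vehicle values did not overlap for either gene (log2 fold change -4.90 for CHRNA2 and -3.81 for MAF, adjusted p = 1.48e-08 and 1.25e-09).

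SLC45A3, the prostein gene, had 36.0, 42.6 and 39.0 CPM in enzalutamide libraries, against 484, 506 and 493 CPM in vehicle libraries (log2 fold change -3.66, SE 0.10, adjusted p = 7.11e-10). FKBP5, a co-chaperone of steroid receptors, had 33.1, 49.9 and 46.6 CPM with enzalutamide and 216, 237 and 222 CPM with vehicle (log2 fold change -2.38, SE 0.14, adjusted p = 1.43e-07). In the combination the 2 genes had log2 fold changes over vehicle of -3.58 and -3.05. GNMT, a glycine methyltransferase that shares exons, fell by 3.97 on the log2 scale.

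Members of the list differed widely in the size of their response, and 4 rose. STEAP2, a metalloreductase, had 1599, 1555 and 1642 CPM with enzalutamide and 707, 738 and 712 CPM with vehicle (log2 fold change 1.15, SE 0.08, adjusted p = 7.18e-07). NDRG1 rose by 0.92 on the log2 scale and was -0.51 in the combination. MED28, which shares exons, rose by 0.55. STEAP1 rose by 0.29, which was lost without enzalutamide library b (adjusted p = 0.0549) or c (0.0733), without vehicle library 1 (0.0777) or 3 (0.0567) and with scaling on genes that share no exon (0.268). Without library a its log2 fold change was 0.39 (adjusted p = 0.000328). TMPRSS2, the serine protease whose promoter is often fused to ETS genes in prostate cancer, had 547, 398 and 400 CPM with enzalutamide and 533, 628 and 516 CPM with vehicle. Library a lay inside the vehicle range, and the adjusted p of 0.0451 (log2 fold change -0.32, SE 0.13) was lost without enzalutamide library b (0.134) or c (0.151), without vehicle library 1 (0.0639) or 2 (0.166) and with the 2 arms fitted alone (0.107). Without library a the log2 fold change was -0.49 (adjusted p = 0.000212). In the combination TMPRSS2 was at 171 CPM (log2 fold change -1.71). TRPM8, a cation channel that shares exons, fell by 0.84 on the log2 scale, and its call was lost without enzalutamide library b (adjusted p = 0.0879) or c (0.0915) and without vehicle library 2 (0.0744) or 3 (0.071). ABCC4, RAB3B and FAM3B did not pass the test, and ABCC4 was called lower without library a (-0.72). ADAM7 was not tested because it had 0 counts in library b. It had 6, 0 and 4 counts with enzalutamide and 432, 511 and 441 counts with vehicle.

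**Figure D2:**
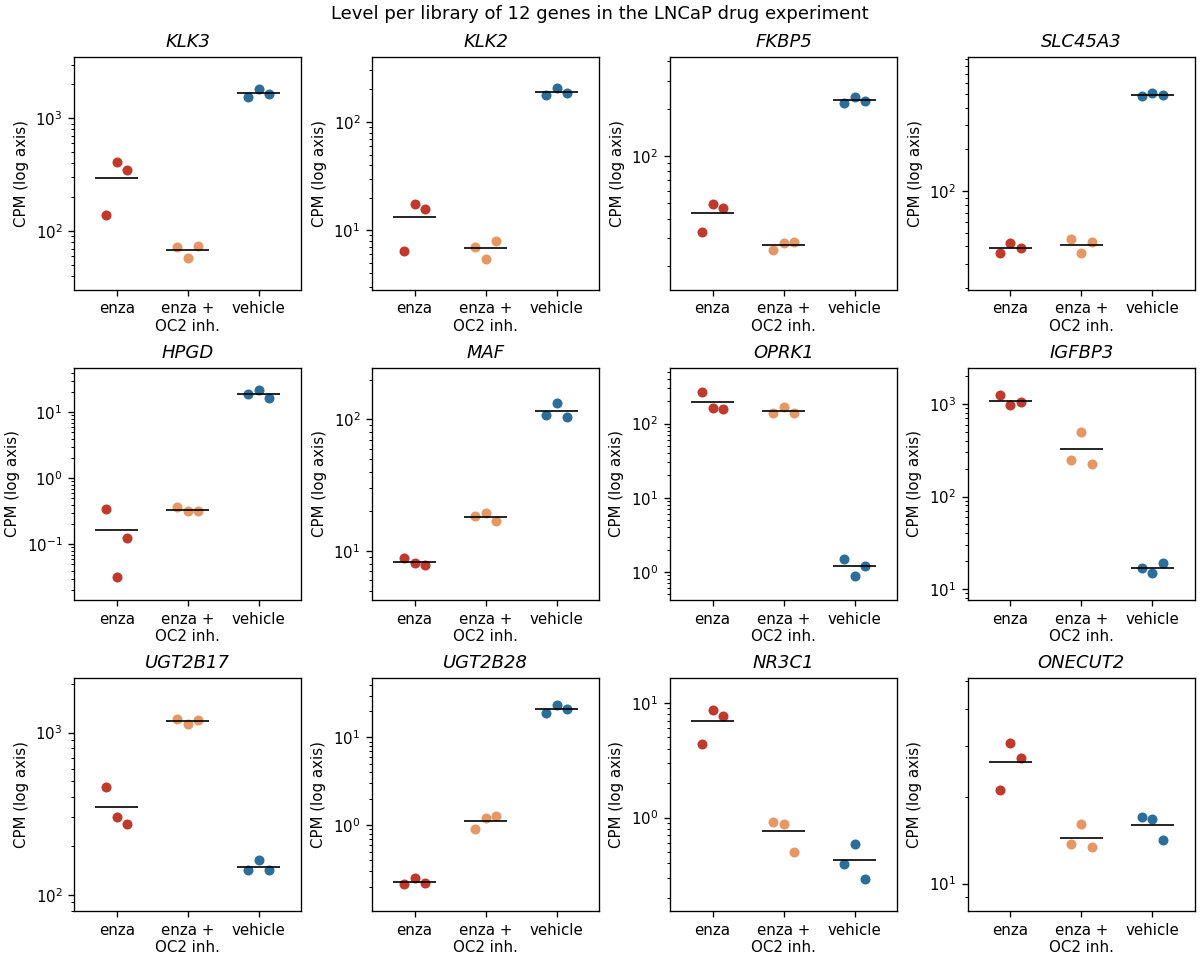
CPM per library (log axis) of 12 genes in the enzalutamide, combination and vehicle arms. Each point is a library and each line the mean of an arm. KLK3, KLK2, FKBP5, SLC45A3, HPGD, MAF and UGT2B28 are lower in all 3 enzalutamide libraries than in any vehicle library, while OPRK1, IGFBP3, UGT2B17, NR3C1 and ONECUT2 are higher.

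Promoter sequences are shown for HPGD, GNMT, KLK2 and MAF, which with CHRNA2 (no sequence shown) had the steepest falls among the named genes of the list, and for KLK3, the best known of them. KLK3 was added after its values and its motif match had been seen. Each is 300 bases, from 250 before to 50 after the start, from RefSeq (GRCh38.p14), on the strand of the gene. Capitals mark a match to the 6-letter androgen response half-site AGAACA or its reverse complement TGTTCT. The windows are chr4:174522439-174522738 (minus strand) for HPGD, chr6:42960504-42960803 (plus) for GNMT, chr19:50873189-50873488 (plus) for KLK2, chr16:79600688-79600987 (minus) for MAF and chr19:50854665-50854964 (plus) for KLK3.
HPGD: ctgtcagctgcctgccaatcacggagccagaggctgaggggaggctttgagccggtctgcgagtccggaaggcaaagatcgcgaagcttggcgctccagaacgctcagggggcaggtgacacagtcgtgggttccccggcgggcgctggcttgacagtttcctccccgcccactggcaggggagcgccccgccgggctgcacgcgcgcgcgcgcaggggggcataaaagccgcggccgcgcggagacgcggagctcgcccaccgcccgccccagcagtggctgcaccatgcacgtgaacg
GNMT: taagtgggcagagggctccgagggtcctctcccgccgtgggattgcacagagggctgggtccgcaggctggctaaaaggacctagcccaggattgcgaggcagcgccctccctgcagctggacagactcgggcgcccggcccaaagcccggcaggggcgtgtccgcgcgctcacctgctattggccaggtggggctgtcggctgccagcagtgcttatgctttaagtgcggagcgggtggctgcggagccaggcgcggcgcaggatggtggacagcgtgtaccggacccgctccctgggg
KLK2: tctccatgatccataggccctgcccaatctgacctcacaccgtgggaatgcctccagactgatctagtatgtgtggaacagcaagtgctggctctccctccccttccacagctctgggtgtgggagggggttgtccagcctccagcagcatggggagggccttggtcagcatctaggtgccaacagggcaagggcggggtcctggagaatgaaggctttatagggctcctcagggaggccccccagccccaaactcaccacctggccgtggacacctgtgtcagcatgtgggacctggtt
MAF: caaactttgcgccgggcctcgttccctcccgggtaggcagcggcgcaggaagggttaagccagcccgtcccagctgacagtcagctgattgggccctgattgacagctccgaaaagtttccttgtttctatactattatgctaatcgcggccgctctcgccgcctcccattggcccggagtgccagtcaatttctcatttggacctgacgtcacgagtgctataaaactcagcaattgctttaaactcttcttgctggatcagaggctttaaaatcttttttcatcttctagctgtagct
KLK3: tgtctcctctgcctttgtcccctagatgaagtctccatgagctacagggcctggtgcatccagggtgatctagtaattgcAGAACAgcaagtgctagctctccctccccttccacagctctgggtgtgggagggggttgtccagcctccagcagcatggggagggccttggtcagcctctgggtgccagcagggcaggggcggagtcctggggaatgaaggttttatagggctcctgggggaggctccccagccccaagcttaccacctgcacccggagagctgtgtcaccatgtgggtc
Of these 5 windows the KLK3 window alone held the half-site, 170 bases before the start. The half-site stood in a window of 14.3% of the 28 androgen-induced genes with a promoter on file (FKBP5, KLK3, PMEPA1 and TRPM8), in 18.2% of the 22 that fell and in 17.5% of all 27305 genes. A looser form, tried after the first, also accepted GGAACA or TGTTCC. The KLK2 window holds GGAACA, which is not in capitals. With the looser form the shares were 35.7%, 40.9% and 30.3%. These are shares of windows with the letters and were not tested.

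Among androgen-repressed genes more rose than fell. Of 14 genes listed, 12 were tested, and 7 rose and 3 fell, against 34.4% of all genes in each direction. UGT2B28 and UGT2B11 were among the 3 that fell, and their values are uncertain for the reason given in the next paragraph. Their median log2 fold change was 1.07. OPRK1, the kappa opioid receptor, had the largest change, with 266, 163 and 157 CPM in enzalutamide libraries, against 1.51, 0.883 and 1.21 CPM in vehicle libraries (log2 fold change 7.34, SE 0.28, adjusted p = 6.92e-09). It stood at 148 CPM in the combination, near the enzalutamide level. PEG10, a retrotransposon-derived gene that shares exons, had 6.82, 10.2 and 7.47 CPM with enzalutamide and 1.22, 1.08 and 0.389 CPM with vehicle (log2 fold change 3.18). BCHE, which encodes butyrylcholinesterase, had 251, 94.0 and 96.1 CPM with enzalutamide and 65.4, 79.7 and 64.7 CPM with vehicle, so that library a was highest (log2 fold change 1.07, adjusted p = 0.0134, and 0.44 without library a).

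The UGT2B enzymes, which attach glucuronic acid to androgens, moved in opposite directions. UGT2B17 had 460, 303 and 274 CPM with enzalutamide and 142, 163 and 142 CPM with vehicle (log2 fold change 1.21, SE 0.17, adjusted p = 9.88e-05). UGT2B15 had 178, 108 and 97.9 CPM with enzalutamide and 139, 158 and 131 CPM with vehicle, and did not pass the test (log2 fold change -0.16), but was called lower without library a (-0.47). UGT2B28 had 0.215, 0.252 and 0.221 CPM with enzalutamide and 19.2, 23.3 and 21 CPM with vehicle, a fall of 6.50 on the log2 scale. UGT2B11, which shares exons, and UGT2B10 fell by 5.23 and 3.05. In the combination UGT2B17 and UGT2B15 were higher, at log2 fold changes over vehicle of 2.98 and 2.04, while UGT2B28, UGT2B11 and UGT2B10 were at -4.22, -2.67 and -0.77. These genes are near-identical in sequence, so the counting step may divide their reads differently and their values are uncertain.

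Steroid-making and steroid-converting genes split by class of gene. Of 13 tested members 5 rose and 6 fell, against 34.4% of all genes in each direction. Of the 5 that share no exon and have no named pseudogene, 4 rose and none fell (median 1.39), so all 6 falls were in the other genes. With only protein-coding genes of that kind fitted, 2 of 5 rose and none fell. HSD17B14, a dehydrogenase that oxidises the 17-beta position of sex steroids, had 16.5, 11.5 and 11.4 CPM with enzalutamide and 1.22, 1.23 and 1.31 CPM with vehicle (log2 fold change 3.38, adjusted p = 1.47e-07). CYP11A1, the side-chain cleavage enzyme that starts steroid synthesis and shares exons, fell by 4.07 on the log2 scale. SRD5A3 and SRD5A1 fell by 1.11 and 0.39. AKR1C3, which makes active androgens from weak ones, had 7.19, 1.57 and 1.61 CPM with enzalutamide and 1.27, 0.981 and 1.70 CPM with vehicle. Its rise (log2 fold change 1.39, adjusted p = 0.0475) rested on library a, without which it was 0.27 with an adjusted p of 0.354, and was lost without vehicle library 1 (0.11), 2 (0.141) or 3 (0.0688) as well. The list held 3 higher members in place of 5 without library a and without vehicle library 1 or 2.

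NR3C1, the glucocorticoid receptor, rose from a low base. It had 4.36, 8.63 and 7.66 CPM in enzalutamide libraries, against 0.391, 0.588 and 0.291 CPM in vehicle libraries (log2 fold change 4.01, SE 0.37, adjusted p = 4.91e-06), with no overlap. In the combination it was at 0.911, 0.877 and 0.502 CPM (log2 fold change 0.84). Of the 20 tested genes of the receptor and its targets, 7 rose and 8 fell, against 34.4% of all genes in each direction. TSC22D3, a classical glucocorticoid-induced gene that shares exons, had 154, 288 and 288 CPM with enzalutamide and 63.3, 71.8 and 64.3 CPM with vehicle (log2 fold change 1.87), against -0.52 in the combination. BIRC3 also rose (2.36), as did ANGPTL4 (3.51), which shares exons. FKBP5, ZBTB16 and MT2A fell (-2.38, -2.10 and -2.25), and SGK1 stood at a log2 fold change of 0.01.

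ONECUT2 had 21.1, 30.7 and 27.2 CPM in enzalutamide libraries, against 17, 16.8 and 14.2 CPM in vehicle libraries, with all 3 enzalutamide values above the vehicle values (log2 fold change 0.72, SE 0.15, adjusted p = 0.00133). The gene occupies bases 57435685 to 57491297 of chromosome 18, plus strand. In the combination it was at 13.7, 16.1 and 13.4 CPM (log2 fold change -0.15). REST, a repressor of neuronal genes that shares exons, rose by 0.43 on the log2 scale. SRRM4, the neural splicing factor that lowers REST activity, had 1, 3 and 2 counts with enzalutamide and 3, 2 and 0 counts with vehicle and was not tested.

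Most neuroendocrine markers had too few counts to be tested. Of 22 listed, 6 were tested and 4 rose, against 34.4% of all genes, and the other 16 had at most 17 counts in any library. With genes that share exons left out of the fit, 2 of 4 tested members rose and 1 fell. DDC, aromatic amino acid decarboxylase, which shares exons, had 368, 362 and 331 CPM with enzalutamide and 30.1, 30.7 and 29.5 CPM with vehicle (log2 fold change 3.55, adjusted p = 9.81e-10). ENO2 had 121, 41.7 and 43.9 CPM with enzalutamide and 14.1, 16.2 and 13.9 CPM with vehicle (log2 fold change 2.22, and 1.54 without library a). SYT4 rose by 1.43. CPE rose by 0.32, which was lost without library a (adjusted p = 0.0939) and without vehicle library 1 (0.102), 2 (0.106) or 3 (0.0949). The defining markers CHGA and INSM1 had at most 3 and 2 counts in any enzalutamide library.

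Luminal prostate genes divided, with 8 of 19 higher and 9 lower, against 34.4% of all genes in each direction. KRT18, a luminal keratin that shares exons, fell by 2.57 on the log2 scale, and SPDEF, a luminal transcription factor, had 60.3, 53.2 and 51.0 CPM with enzalutamide and 233, 227 and 238 CPM with vehicle. FOLH1, which encodes prostate-specific membrane antigen, had 1598, 1356 and 1301 CPM with enzalutamide and 897, 956 and 868 CPM with vehicle (log2 fold change 0.65, adjusted p = 0.000271). GATA2 rose by 1.14 and the claudin CLDN4 by 1.48. FOXA1, which shares exons, and HOXB13 mark the prostate lineage and fell by 0.46 and 0.22. HOXB13 lost its call without enzalutamide library c (adjusted p = 0.13) and without vehicle library 1 (0.085), 2 (0.0752) or 3 (0.0745). Among 8 tested basal and stem genes, SOX9 rose by 3.72, with 27.5, 34.0 and 38.8 CPM in enzalutamide libraries, against 2.20, 3.29 and 2.09 CPM in vehicle libraries. ITGB4 rose by 2.80, and 2 members fell, or 1 without vehicle library 2. Of the 4 basal and stem members that share no exon and have no named pseudogene, 3 rose and none fell. The basal keratin KRT5 had 0 counts in the enzalutamide libraries and 1, 0 and 0 counts in the vehicle libraries.

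Of 10 tested mesenchymal genes, 3 rose and 6 fell. For these and the cell markers below, the share over all genes was 34.4% in each direction. FN1, fibronectin, had 1758, 3092 and 2824 CPM with enzalutamide and 262, 348 and 268 CPM with vehicle (log2 fold change 3.13, SE 0.21, adjusted p = 4.53e-07), and COL5A1 rose by 3.46. SNAI2 and TWIST1, transcription factors of epithelial-mesenchymal transition, fell by 4.76 and 2.59, and TWIST1 shares exons. Of 19 markers of stromal, endothelial and blood cells, 13 were not tested and had at most 8 counts in any library. Among them COL1A2 had 0 counts in all 6 libraries and PTPRC had at most 1. Of the 6 tested, which include COL1A1 at 34.7 CPM on average with enzalutamide and 25.7 CPM with vehicle, 1 rose and 3 fell, and 2 rose without enzalutamide library a or b. The summed level of the 6 tested ones was 39.5 to 58.5 CPM with enzalutamide and 58.3 to 64.6 CPM with vehicle.

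Genes of DNA replication and mitosis fell. In the replication list 27 of 32 tested members fell and none rose, with a median log2 fold change of -1.15. In the mitosis list 28 of 32 fell and none rose (median -1.01). The background was 34.4% of genes falling and a median of 0.02. E2F1, a transcription factor that starts S phase, had 14.8, 32.8 and 27.8 CPM with enzalutamide and 92.7, 89.2 and 93.3 CPM with vehicle (log2 fold change -1.87, SE 0.23, adjusted p = 3.82e-05). MCM5, part of the replicative helicase, had 14.5, 43.5 and 33.2 CPM with enzalutamide and 87.9, 82.0 and 95.1 CPM with vehicle (log2 fold change -1.54). Both genes were lowest in library a. Among mitotic genes CENPE, a kinetochore motor, fell by 2.07 and PLK1, a mitotic kinase that shares exons, by 2.22. MKI67, a proliferation marker that has a pseudogene named after it, had 26.7, 85.6 and 64.3 CPM with enzalutamide and 102, 92.7 and 96.8 CPM with vehicle, and did not pass the test (log2 fold change -0.73, adjusted p = 0.072). It was -0.38 and not called without library a (adjusted p = 0.0529), and -1.10 and called lower without library b (0.0112). TOP2A and CDK1 did not pass it either (-0.22 and -0.41). The summed replication genes were at 761, 1682 and 1444 CPM with enzalutamide and 2820 to 2877 CPM with vehicle, and library a was the lowest of the 9 libraries. Without library a, 1 replication gene was called higher.

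**Figure D3:**
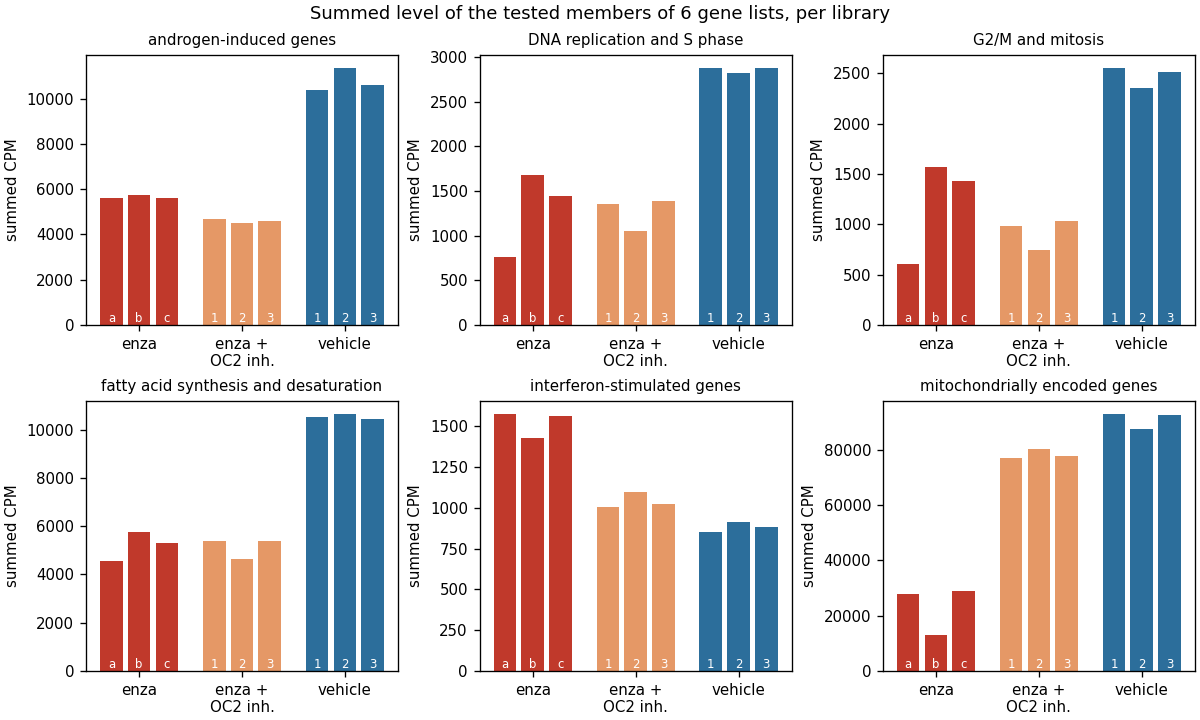
Summed CPM of the tested members of 6 gene lists, with one bar per library and enzalutamide left of the combination and vehicle. The replication and mitosis sums are lowest in enzalutamide library a (761 and 608 CPM), interferon-stimulated genes are higher with enzalutamide, and mitochondrial transcripts fall to 13080 CPM in library b, against 87585 to 92991 CPM with vehicle.

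Fatty acid genes fell more often than they rose. Sterol genes did so over all members, but among those that share no exon the count depended on the fit. Of 21 tested fatty acid genes, 13 fell and 5 rose (median log2 fold change -0.57), against 34.4% of all genes in each direction. Among the 10 that share no exon and have no named pseudogene, 7 fell and 3 rose. FASN, fatty acid synthase, had 794, 861 and 720 CPM with enzalutamide and 3056, 2805 and 2894 CPM with vehicle (log2 fold change -1.88, SE 0.10, adjusted p = 6.82e-08). ELOVL5, a fatty acid elongase, fell by 1.84, and ELOVL7 by 2.05. ACACB, which makes malonyl-CoA at mitochondria, rose by 1.18. Of 23 sterol genes, 11 fell and 4 rose, but of the 9 that share no exon and have no named pseudogene 1 fell and 2 rose (median -0.13). With only protein-coding genes of that kind fitted, 5 of 9 sterol genes fell and 2 rose (median -0.29). CYP51A1 and FDPS, which share exons, fell by 3.21 and 2.00, while SC5D and MSMO1 rose by 0.66 and 0.48, and 7 members were called higher without library a. Of 12 polyamine genes 6 fell and 4 rose, with ODC1, the first enzyme of the pathway, at 228, 361 and 322 CPM with enzalutamide and 583, 600 and 583 CPM with vehicle (log2 fold change -0.96).

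Interferon-stimulated genes rose. Of 26 tested members 20 rose and 2 fell, against 34.4% of all genes in each direction. The median log2 fold change was 0.96, against 0.02 over all genes. The combination had a median of 0.01 over vehicle. HLA-E, a class I antigen, had 101, 96.6 and 98.6 CPM with enzalutamide and 24.4, 28.4 and 25.8 CPM with vehicle (log2 fold change 1.91, SE 0.08, adjusted p = 1.25e-08). PSMB8 and PSMB9, immunoproteasome subunits that share exons, rose by 4.38 and 3.04, and IFIT3 by 2.01. IRF9 and ISG15, which share exons, had log2 fold changes of -2.75 (-3.56 without library a) and -0.70, both falls. Among the 12 members that share no exon, 9 rose and none fell. No vehicle library has the enzalutamide kind of counts, so treatment and counting step cannot be told apart in this rise.

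Of 18 tested Wnt pathway genes 12 rose and 3 fell, against 34.4% of all genes in each direction. FZD7, a Wnt receptor, had 17.1, 18.2 and 19.1 CPM with enzalutamide and 3.32, 3.53 and 3.16 CPM with vehicle (log2 fold change 2.44, adjusted p = 4.7e-08). LRP6, a co-receptor, and WNT5A, a ligand, rose by 1.55 and 2.10, and LEF1, a nuclear partner that shares exons, by 2.22. FZD5 fell by 0.90. Among receptor kinases and their ligands 8 of 18 rose and 4 fell, a share of rises near that of all genes. MET had 6.15, 8.63 and 7.91 CPM with enzalutamide and 0.928, 1.57 and 1.55 CPM with vehicle (log2 fold change 2.48), EGFR, which shares exons, rose by 0.85, and IGF1R fell by 1.48. EPHA3 rose by 2.71, and lost its call without vehicle library 3 (adjusted p = 0.0525). The count of higher members among receptor kinases and ligands was then 5.

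Stress, survival and metabolic lists were mixed, and the shares below stand against 34.4% of all genes higher and 34.4% lower. Of 23 amino acid and ATF4 response genes 9 rose and 5 fell, and 14 rose without library a. ALDH1L2, a mitochondrial folate enzyme that shares exons, had 21.4, 40.7 and 43.9 CPM with enzalutamide and 1.22, 1.13 and 0.874 CPM with vehicle (log2 fold change 5.03, adjusted p = 1.96e-07), and was at -0.03 in the combination. The amino acid transporter SLC7A5, which shares exons, had 80.0, 224 and 243 CPM with enzalutamide and 15.1, 17.3 and 13.6 CPM with vehicle, a rise of 3.57. CBS fell by 3.06, and its near-identical copy CBSL makes that value uncertain. Of 20 p53 target genes 5 rose and 5 fell, and 8 rose without library a. RRM2B and TP53INP1 rose by 1.30 and 1.25, and GDF15 fell by 1.21. Endoplasmic reticulum chaperones had 5 of 22 higher and 8 lower, with 3 higher without vehicle library 1 or 3. Hypoxia and glycolysis genes had 8 of 25 higher and 7 lower, where SLC16A3 and EGLN3 rose by 3.09 and 2.43 and GAPDH fell by 1.59. BCL2 family genes had 7 of 17 higher and 3 lower, with the killer proteins BMF and HRK up by 2.04 and 2.15. G1 regulators had 5 of 15 higher and 6 lower, and RBL2 and RB1 rose by 0.91 and 0.46. Of 17 splicing regulators 8 rose and 4 fell, and SRRM3 and NOVA2 rose by 3.69 and 3.92. In the G1, splicing and BCL2 lists no member that shares no exon and has no named pseudogene fell. Of such members, 4 of 6, 7 of 10 and 2 of 6 rose, in that order. Over all protein-coding genes of that class, 43.4% rose and 26.4% fell. With only that class fitted, 1 G1 and 1 BCL2 member fell. The other lists of this paragraph had falls in that class.

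Most mitochondrial, ribosomal protein and histone genes tested fell, against 34.4% of all genes. All 13 mitochondrially encoded genes fell, with a median of -1.95 (combination -0.18). Their share of all counts was 4.71%, 2.23% and 4.67% in enzalutamide libraries and 10.5% to 11.1% in vehicle libraries, lowest in library b. Of 40 ribosomal protein genes 35 fell and none rose, or 1 without library a (median -0.83, combination -0.49), and every one shares exons or has a pseudogene named after it. Of 12 replication-dependent histones 8 fell and 4 did not pass the test (median -0.97, combination -0.032). The part of the counting step in these falls was not tested.

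**Figure D4:**
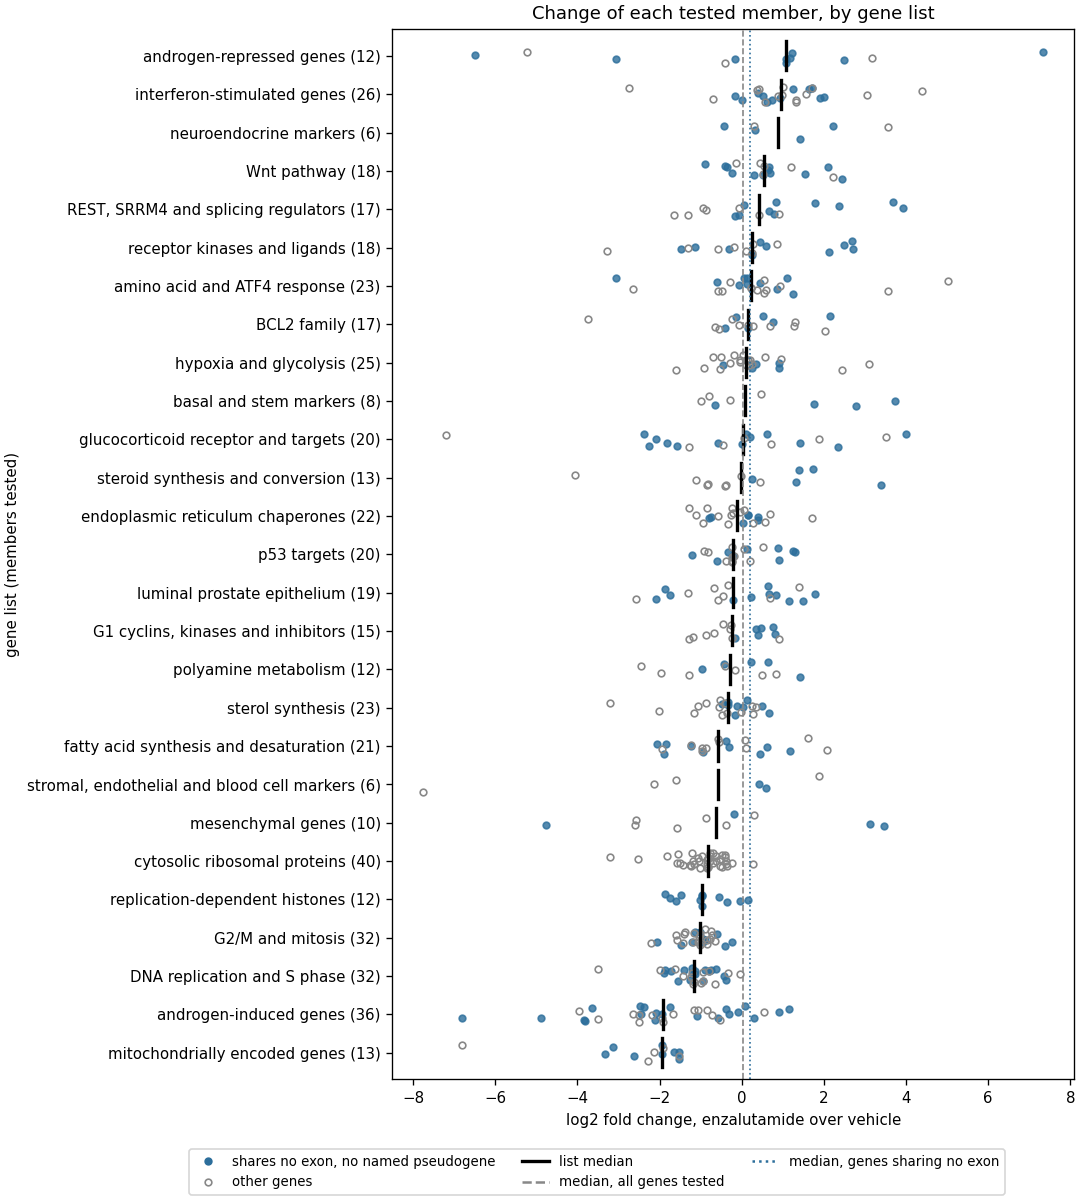
Log2 fold change of every tested member of 27 gene lists, enzalutamide over vehicle, ordered by list median. Filled points share no exon and have no named pseudogene, open points are other genes, bars are list medians and the vertical lines the medians of all genes (0.02) and of genes sharing no exon (0.21). Androgen-induced genes have a median of -1.93 and androgen-repressed genes 1.07.

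Outside the lists, the steepest changes were taken among called protein-coding genes that averaged 5 CPM or more in one group, did not overlap between the groups, shared no exon and had the combination on the same side of vehicle. This rule was met by 1221 higher and 960 lower genes, and it fixes the side of the combination. IGFBP3, which binds insulin-like growth factors, had 1242, 973 and 1065 CPM in enzalutamide libraries, against 17, 15.1 and 19 CPM in vehicle libraries (log2 fold change 6.0, SE 0.32, adjusted p = 8.48e-08), and 323 CPM in the combination. SPRY4, a brake on receptor kinase signalling, had 84.9, 84.7 and 79.2 CPM with enzalutamide and 1.51, 1.86 and 1.41 CPM with vehicle (log2 fold change 5.70). HLA-DRA, a class II antigen chain, had 30.4, 4.79 and 7.38 CPM with enzalutamide and 0.147, 0.147 and 0.0971 CPM with vehicle, and AOC1, diamine oxidase, had 60.9, 12.4 and 10.3 CPM with enzalutamide and 0.195, 0.245 and 0.534 CPM with vehicle. Both were high in library a (log2 fold changes 6.71 and 6.40, and 5.49 and 5.10 without it). S1PR3, a sphingosine-phosphate receptor, had 208, 506 and 475 CPM with enzalutamide and 11.8, 15.7 and 12.7 CPM with vehicle (log2 fold change 4.89), while the combination was at 0.78. PARP14 and SCRN1 rose by 5.22 and 5.17, against 1.03 and 1.15 in the combination. PCDH11X, MATN2, PLD1 and CCDC80 also rose, by 5.11 to 6.0, and PCDH11X and CCDC80 were at 5.30 and 4.29 without library a.

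The falls beside the androgen-induced genes and UGT2B28 included F5, coagulation factor V, with 0.461, 0.504 and 0.158 CPM in enzalutamide libraries, against 20.2, 21.4 and 18.9 CPM in vehicle libraries (log2 fold change -5.73, SE 0.31, adjusted p = 8.87e-08). DHRS2, a short-chain dehydrogenase, and MALL, a raft-associated membrane protein, fell by 4.87 and 3.99. U2AF1, a splicing factor, had 3.13, 2.05 and 1.92 CPM with enzalutamide and 61.3, 55.7 and 59.0 CPM with vehicle, and 44.4 to 48.9 CPM in the combination. It has the near-identical copy U2AF1L5, so its value is uncertain. The same holds for KRT6C, FAM72C and the metallothionein MT1G, which fell by 4.89, 3.80 and 4.53 and have near-identical relatives. Without library a, KRT6C and MT1G were at -5.59 and -5.29.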

How the data were processed

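The authors deposited the 3 enzalutamide columns of the drug table as whole-number counts per gene symbol, and the vehicle and combination columns as estimated counts, rounded here to whole numbers. Per the submitters' processing notes, reads were aligned with Bowtie2 to hg38. No counter and no annotation release is given in the sources used here. The enzalutamide columns carry no number that ties them to samples and were used as members of their group. Rows of one symbol were summed (321 symbols), symbols at 0 in any of the 9 libraries were left out, and filterByExpr removed low counts.

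The 9 libraries were fitted together in edgeR 4.0.16 (R 4.3.3) with TMM scaling, glmQLFit and glmQLFTest, so the 3 arms share an estimate of the spread, with Benjamini-Hochberg adjustment over 16231 genes and a threshold of 0.05. Enzalutamide and combination comparisons share the vehicle libraries. Standard errors come from the F statistic. On simulated counts of 15915 genes, 200 of them changed, the fit called 91% of the 2-fold and 98% of the 4-fold changes, along with 12 genes that had not been changed. The simulation held no difference in counting step and far fewer changed genes than were called here. Its rates therefore cannot be carried over to this comparison. Exon sharing, pseudogenes and coordinates are from GENCODE 29 on hg38. Alternatives included DESeq2 1.42.0, other filters and scalings, and leaving out each library.

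The comparison, the 27 gene lists (chosen by function), the named genes and the tests were chosen with earlier results of these data known. Named genes were a fixed group (ONECUT2, KLK3, KLK2, TMPRSS2, FKBP5, TRPM8, NR3C1, FOXA1, HOXB13, REST, SRRM4, PEG10, UGT2B15, UGT2B17 and MKI67 among them), the 12 steepest rises and 12 steepest falls by the rule given in the text, and, per list, at most 4 called members (by size of change) and at most 2 that were not called (by level). A further 37 genes named in the text (KLK4, STEAP2, TSC22D3 and HLA-E among them) were chosen after their values were seen. Some genes are not reported here.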

Additional observations from a re-analysis of the deposited data

How the results depend on the processing

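No gene was called in opposite directions by the main fit and an alternative, and 10748 of 11171 calls were kept without enzalutamide library a. Changes of sign in genes that lost their call were not counted over all genes. Testing against a 1.5-fold change (glmTreat) left 5893 genes (2900 higher, 2993 lower). Leaving out genes that share exons left 4855 (2485 higher, 2370 lower) and testing clean protein-coding genes alone left 3920 (2001 higher, 1919 lower), both over fewer genes. Leaving out single libraries gave 10072 to 11848 calls (4950 to 5879 higher, 5122 to 5969 lower). DESeq2 called 11079. Scaling on the protein-coding genes that share no exon shifted the median log2 fold change by -0.17 and gave 4485 higher and 6660 lower, with p53 targets lower in 10 members in place of 5 and BCL2 genes lower in 6 in place of 3. Under the same scaling the neuroendocrine list had 1 lower member, DLL3, and MKI67 was called lower. Against a 1.5-fold change, 13 mitosis genes in place of 28 and 16 ribosomal protein genes in place of 35 were lower, and ONECUT2 was no longer called. No paired analysis was possible because the enzalutamide columns carry no replicate number that ties them to samples. Depth limits HPGD, SRRM4 and other genes with few counts, and the counting step cannot be told apart from treatment.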

Other observations

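The following 5 families were chosen after their values had been seen, so their counts are descriptions, to be read against the 68.8% of all genes called (34.4% higher and 34.4% lower). Metallothioneins, which bind zinc and copper, fell in 4 of 4 tested members. MT2A averaged 37.1 ± 5.49 CPM with enzalutamide and 176 ± 9.15 CPM with vehicle (SD, n = 3 each), and the near-identical copies among them make MT1G and MT1X uncertain. MT1X also shares exons. ERK feedback genes rose in 5 of 10 tested members and fell in 1: beside SPRY4, DUSP5 averaged 18.3 ± 6.07 CPM with enzalutamide and 2.98 ± 1.11 CPM with vehicle, while DUSP4 averaged 14.3 ± 1.73 CPM with enzalutamide and 51.4 ± 2.63 CPM with vehicle. Amino acid transporters rose in 6 of 10 and fell in 3, and SLC7A1 averaged 430 ± 156 CPM with enzalutamide and 182 ± 5.35 CPM with vehicle. Class II antigen presentation genes rose in 4 of 8 and fell in 2. CD74, the invariant chain, averaged 5.92 ± 1.38 CPM with enzalutamide and 0.179 ± 0.124 CPM with vehicle. IGF binding proteins rose in 2 of 3 and fell in 1, IGFBP2, which averaged 72.7 ± 23.7 CPM with enzalutamide and 122 ± 9.68 CPM with vehicle.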
